A study of Homo sapiens with 16 samples.

Results

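The genes described here encode the LEM-domain proteins LEMD1, LEMD2, LEMD3, TMPO and EMD, the LEM-domain binding protein BANF1, the lamins LMNA, LMNB1 and LMNB2, and the lamin B receptor LBR. They are 10 of the 18190 gene symbols of the table, and were found by their symbols in it. LEMD1 was chosen by its signal over time in these same arrays, a steady rise from 6 h, and the others because they belong to the same protein families. The values of LEMD1 are therefore a description and carry no test, while the other 9 genes could be tested. The cells were MCF10HER2, made by transducing MCF10A, a human breast epithelial line that is not transformed, so that it over expresses HER2, a receptor tyrosine kinase encoded by ERBB2. All cultures, the 0 h culture included, carried the HER2 transgene and were grown without serum and without insulin, in medium with EGF and hydrocortisone. CP724,714, which inhibits the kinase of HER2, was given to parallel cultures at 1 µM for 3 to 45 h, and the 0 h culture was untreated. RNA was measured on 1 array every 3 h, 16 arrays in all, so no time point has a replicate and no untreated culture later than 0 h was analysed here. Whether the line is 1 clone is not given in the sources used here.

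The nuclear lamina is a meshwork of lamin filaments beneath the inner nuclear membrane. LEM-domain proteins share a short fold that binds BANF1 (barrier-to-autointegration factor, BAF), a small protein that bridges DNA, and most of them are anchored in the inner membrane and also bind lamins. These contacts hold chromatin at the envelope in interphase, and they are taken apart in mitosis and rebuilt around the daughter chromosomes. A-type lamins come from LMNA and B-type lamins from LMNB1 and LMNB2. Loss of LMNB1 is a known mark of senescent cells.

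Between 10363 and 11436 of the 20589 rows of the table, each the signal of 1 array target, were detected on an array, and the arrays from 9 h and 18 h were dimmer than the rest. On the 8 arrays up to 21 h the background signal was 136 to 149, and on the 8 later ones 164 to 174, so that time and this division cannot be told apart at 24 h. Values are normalized log2 signals, in which a difference of 1 is a doubling, and they are not compared between genes because each probe has its own brightness. Of the basal and epithelial markers, KRT5, KRT17, ITGB4, KRT8 and KRT18 were detected on all 16 arrays, CDH1 on 15, LAMB3 on 2 (with a log2 signal of 11.51 or more on every array) and KRT14 on 1, and the hormone receptors ESR1 and PGR on 0. The rows of ERBB2 itself were detected on 1 and 7 arrays, at log2 signals of 5.62 to 6.42, which is near the lower limit of the arrays. The part of the transcript that these rows bind was not analysed here. Of the markers of other cell types, CD14, PECAM1 and DCN were detected on 16 arrays, at log2 signals of at most 8.40, PTPRC on 7, CD3E on 1, and CDH5, COL1A1, COL1A2 and PDGFRB on 0. In these bulk RNA samples fewer cells with a transcript and less of it in each cell cannot be told apart.

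Of the 12 rows with a member's symbol, 10 were detected on 3 or more of the 16 arrays (detection p under 0.05), 1 for each gene. A further row of TMPO and a further row of LBR were detected on 0 arrays and are not used. TMPO was detected on 12 arrays and each of the other 9 genes on all 16.

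LEMD1, which encodes a LEM-domain protein known in normal tissue mainly from testis and found in several cancers, rose over the whole 45 h. Its log2 signal was 8.70 on the untreated array, and 8.97, 10.14 and 10.38 after 3, 6 and 9 h of inhibitor. The arrays from 12, 15, 18 and 21 h gave 10.53, 10.99, 11.40 and 11.33, in that order, and those from 24, 27, 30 and 33 h gave 11.13, 11.48, 11.56 and 11.56. The last arrays, from 36, 39, 42 and 45 h, gave 11.96, 11.96, 11.91 and 12.06. All 15 treated arrays thus lay above the untreated one, and 14 of them by the study's 1.7-fold or more. At 45 h the signal was 10.2 times that at 0 h, and before normalization it had gone from 564 to 4954. The rise was uneven, since 11 of its 15 steps were upward and 4 downward, and the step from 3 to 6 h, of 1.17 on the log2 scale, was the largest. By 9 h it had made 50.1% of its whole change and by 18 h 80.4%.

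A straight line through the 16 arrays gave LEMD1 a log2 change of 2.93 over 45 h (SE 0.32), which ranked 4 of the 12321 tested rows. Ranked by the rise over the untreated array, LEMD1 was 3100 after 3 h, and 148, 43, 8 and 6 after 6, 12, 18 and 45 h. These ranks describe the values on which the gene was chosen. Within the 8 arrays up to 21 h the slope was 2.77 per 21 h (SE 0.23), and within the 8 arrays from 24 h it was 0.85 (SE 0.23), so LEMD1 rose on both sides of the change in background. Between 21 and 24 h, where the background changed, it fell by 0.19. In the late arrays its largest step, 0.40, lay between 33 and 36 h. LEMD1 was between 11.13 and 11.56 from 24 to 33 h, and between 11.91 and 12.06 from 36 to 45 h. The part of that step in the late slope was not tested.

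The sequence before LEMD1 has the fewest CpG of the 14 windows taken before the starts of these genes. The 250 bases upstream of its RefSeq start (chr1:205422057-205422306, minus strand, GRCh38.p14) hold 1 CpG and 40.4% G and C, where the median window among 35116 such windows holds 11 CpG and 58% G and C. 14.7% of all windows hold no more CpG than that of LEMD1. The window is shown because it holds, in capitals, the letters of the cell cycle homology region motif (CHR, TTTGAA), which also occur on either strand in 13.3% of all windows.
LEMD1: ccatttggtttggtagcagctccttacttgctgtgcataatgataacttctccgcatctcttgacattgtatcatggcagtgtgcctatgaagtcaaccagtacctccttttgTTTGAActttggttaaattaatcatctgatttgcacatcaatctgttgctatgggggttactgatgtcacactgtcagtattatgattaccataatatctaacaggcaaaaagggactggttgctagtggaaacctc

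**Figure D1:**
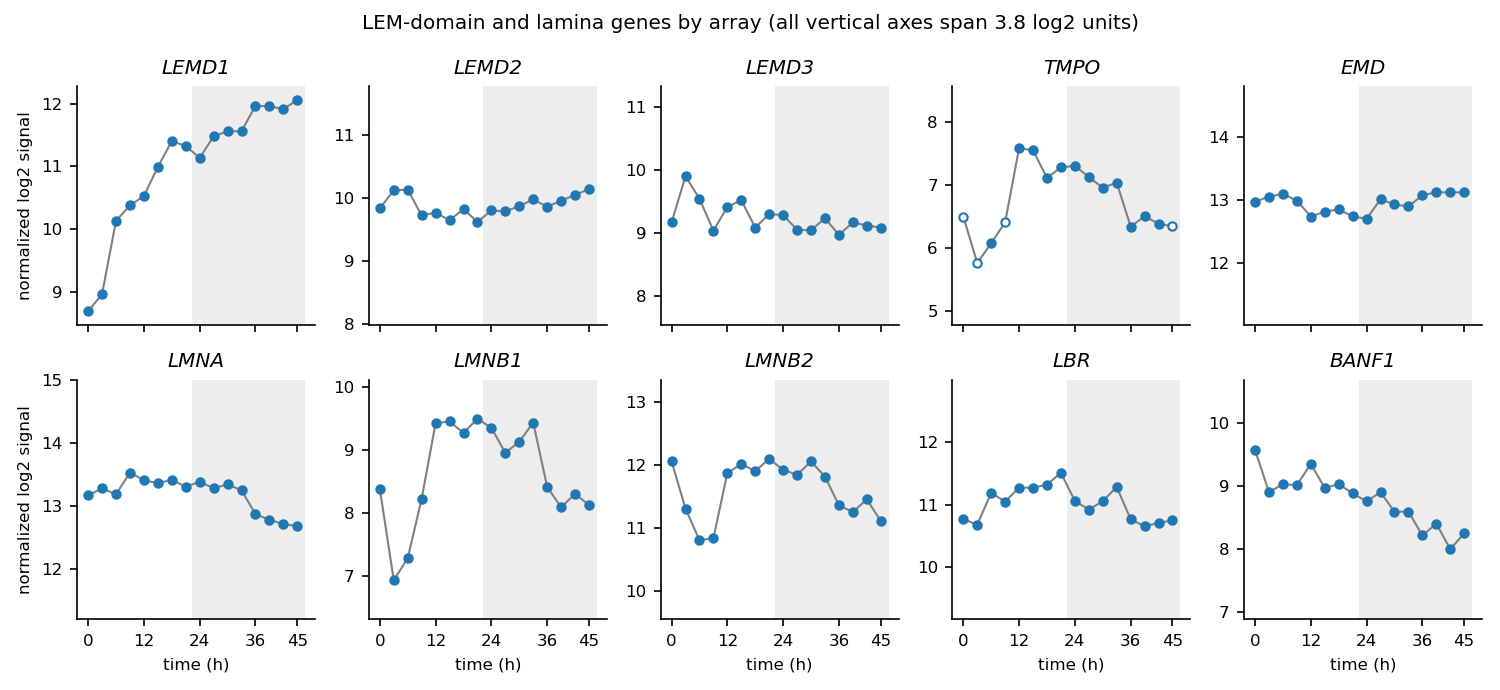
Normalized log2 signal of the 10 genes (vertical axes, each spanning the same range) against time after addition of CP724,714 in hours, 1 point per array, with 0 h untreated. Open points are arrays on which the gene was not detected, and the grey ground marks the 8 arrays from 24 h; LEMD1 climbs from 8.70 to 12.06, LMNB1 and TMPO are low at 3 h, high from 12 to 33 h and low again from 36 h, and EMD stays between 12.70 and 13.12.

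LEMD2, LEMD3 and EMD, which encode LEM-domain proteins of the inner membrane, each spanned less than 2-fold over the 16 arrays. LEMD2, an inner membrane protein that shares its fold, ranged from 9.62 at 21 h to 10.14 at 45 h, a span of 1.44-fold. LEMD3, also called MAN1, which binds SMAD proteins and dampens TGF-β signaling, ranged from 8.97 at 36 h to 9.90 at 3 h, a span of 1.91-fold. Emerin, encoded by EMD, ranged from 12.70 at 24 h to 13.12 at 39 h, a span of 1.34-fold. Over 45 h the fitted log2 change was 0.12 for LEMD2 (SE 0.15, adjusted p = 0.60), -0.44 for LEMD3 (SE 0.18, adjusted p = 0.082) and 0.14 for EMD (SE 0.12, adjusted p = 0.44). None of these passed the test, and none of the 3 genes reached a 1.7-fold difference from 0 h on any array.

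Time dependence was tested with a spline of time, which allows a rise and a fall, and LEMD2 (adjusted p = 0.14) and LEMD3 (adjusted p = 0.30) did not pass it. EMD did (adjusted p = 0.023), through a shallow dip. Its signal was 13.04 ± 0.05 (SD, n = 3) from 3 to 9 h, 12.78 ± 0.06 (n = 4) from 12 to 21 h, 12.88 ± 0.13 (n = 4) from 24 to 33 h and 13.11 ± 0.02 (n = 4) from 36 to 45 h. These SDs, here and below, are between time points and not between replicates. EMD was thus lower from 12 to 21 h than on any array from 3 to 9 h, and higher from 36 h than on any array from 24 to 33 h. When arrays were scaled to a common median in place of quantiles, the dip of EMD kept its direction but no longer passed the test (adjusted p = 0.25).

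TMPO, or thymopoietin, encodes the LAP2 proteins, of which the membrane-bound forms tie B-type lamins to chromatin. Its signal was 6.51 untreated, and 5.77, 6.08 and 6.41 after 3, 6 and 9 h. It reached 7.59, 7.56, 7.12 and 7.29 on the arrays of 12, 15, 18 and 21 h, and 7.31, 7.13, 6.96 and 7.04 on those of 24, 27, 30 and 33 h. The last values, for 36, 39, 42 and 45 h, were 6.35, 6.51, 6.39 and 6.35. TMPO was not detected at 0, 3, 9 and 45 h. The 8 arrays from 12 to 33 h therefore all lay above the 8 others. In these values the 12 h signal was 2.12-fold that at 0 h, where the gene was not detected. The detection calls of TMPO did not follow its signal before normalization. That signal was 258 at 45 h, where TMPO was not detected, and 257 at 36 h, where it was. Time dependence passed the test (adjusted p = 0.0076), whereas the straight line, with a log2 change of 0.07 (SE 0.41, adjusted p = 0.93), did not. TMPO is dim, and the height of its rise depended on the background correction. From its lowest to its highest array it moved by 3.54-fold here, and by 1.20-fold when the background was estimated from all rows of the table, where no array reached 1.7-fold and the spline still passed. Its promoter window (chr12:98515323-98515572, plus strand, GRCh38.p14) is shown because it carries CCAAT boxes (CCAAT, in capitals), common in promoters of cell cycle genes and found on either strand in 32% of all windows. It holds 30 CpG.
TMPO: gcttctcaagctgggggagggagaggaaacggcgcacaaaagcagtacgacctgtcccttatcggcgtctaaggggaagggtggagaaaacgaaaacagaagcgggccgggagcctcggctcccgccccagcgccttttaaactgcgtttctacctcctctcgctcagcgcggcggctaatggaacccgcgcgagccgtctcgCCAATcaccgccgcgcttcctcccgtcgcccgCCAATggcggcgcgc

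Both B-type lamin genes fell, rose and fell again, whereas LMNA fell late. LMNB1, which encodes lamin B1, fell from 8.38 without inhibitor to 6.93 after 3 h, and regained 7.28 and 8.22 after 6 and 9 h. All 8 arrays of 12 to 33 h lay between 8.95 and 9.50, and all 4 of 36 to 45 h between 8.09 and 8.41. The mean was 7.48 ± 0.67 (SD, n = 3) from 3 to 9 h, 9.41 ± 0.10 (n = 4) from 12 to 21 h, 9.22 ± 0.22 (n = 4) from 24 to 33 h and 8.23 ± 0.15 (n = 4) from 36 to 45 h. LMNB1 was thus 3.82-fold higher from 12 to 21 h than from 3 to 9 h, and 1.98-fold lower from 36 h than from 24 to 33 h, with no overlap between these sets of arrays. Against the untreated array it was 1.7-fold or more lower on 2 arrays and higher on 6, and the 45 h signal was 1.20-fold below that at 0 h. Time dependence passed the test (adjusted p = 0.0083) and the straight line did not (log2 change 0.48, SE 0.58, adjusted p = 0.60). From the lowest to the highest array LMNB1 moved by 5.93-fold, and by 2.19-fold with the background estimated from all rows, where no array reached 1.7-fold against 0 h and the spline still passed.

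LMNB2, which encodes lamin B2, had a course like that of LMNB1 (r = 0.75 over the 8 early arrays and 0.92 over the 8 late ones), but exceeded its untreated level on 1 array alone, by 0.04 at 21 h. It fell from 12.06 without inhibitor to 11.31, 10.81 and 10.84 after 3, 6 and 9 h, and lay between 11.82 and 12.10 on each of the 8 arrays of 12 to 33 h. From 36 to 45 h it lay between 11.12 and 11.46. It was 2.11-fold below the untreated array as a mean from 3 to 9 h (10.99 ± 0.28, SD, n = 3) and lower than it by 0.76 on the log2 scale from 36 to 45 h (11.30 ± 0.15, n = 4). It did not exceed its untreated level by 1.7-fold on any array. Time dependence passed the test at adjusted p = 0.026 and the straight line did not (log2 change -0.07, SE 0.33, adjusted p = 0.91). The spline call was lost when any of the arrays from 3, 6, 9 or 21 h was left out (adjusted p = 0.056 to 0.079). The promoter window of LMNB2 (chr19:2456960-2457209, minus strand, GRCh38.p14) is shown because it shares the CHR letters TTTGAA, in capitals, with that of LEMD1, whose time course was different. It holds 30 CpG.
LMNB2: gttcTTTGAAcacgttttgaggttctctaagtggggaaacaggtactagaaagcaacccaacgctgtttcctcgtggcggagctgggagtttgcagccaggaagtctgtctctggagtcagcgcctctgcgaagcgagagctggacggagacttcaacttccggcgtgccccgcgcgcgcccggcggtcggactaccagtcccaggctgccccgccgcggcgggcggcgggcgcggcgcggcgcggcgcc

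LMNA, the source of lamins A and C, changed most in the last 4 arrays. Its signal was 13.17 without inhibitor, stayed within 13.18 and 13.53 on all 11 arrays of 3 to 33 h, and was 12.87, 12.78, 12.71 and 12.68 after 36, 39, 42 and 45 h. The last 4 arrays were thus the lowest of the 16. They averaged 12.76 ± 0.08 (SD, n = 4), 1.47-fold below the mean of 13.31 ± 0.06 (n = 4) from 24 to 33 h and 1.33-fold below 0 h. LMNA passed the spline test (adjusted p = 8.7e-05) and the straight line, with a log2 change of -0.59 over 45 h (SE 0.15, adjusted p = 0.0089). It did not reach 1.7-fold against 0 h on any array.

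LBR, the lamin B receptor, binds B-type lamins and heterochromatin protein and also works as a sterol reductase. It was 10.77 untreated and 10.68 after 3 h, rose to 11.51 by 21 h, was 11.06 and 11.28 after 24 and 33 h, and lay between 10.65 and 10.77 from 36 to 45 h. Its highest and lowest arrays differed by 1.80-fold, and it passed the spline test (adjusted p = 0.010) but not the straight line (log2 change -0.24, SE 0.20, adjusted p = 0.44). The step from 21 to 24 h, of -0.45, falls where the background changed. Its part in the result was not tested.

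BANF1, the partner that LEM domains bind, fell over the course. It had its highest signal, 9.57, on the untreated array, and was 8.90, 9.35, 8.88, 8.59 and 8.25 after 3, 12, 21, 33 and 45 h, with its lowest value, 7.99, at 42 h. All 15 treated arrays lay below the untreated one, 7 of them by 1.7-fold or more. The mean was 2.57-fold below 0 h from 36 to 45 h (8.21 ± 0.17, SD, n = 4). The straight line gave a log2 change of -1.18 (SE 0.18, adjusted p = 9.1e-05). The spline passed as well (adjusted p = 0.00060). BANF1 thus lay below its untreated level on every treated array, and LEMD1 above its own. The span of BANF1, 2.99-fold here, was 1.96-fold with the background estimated from all rows.

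**Figure D2:**
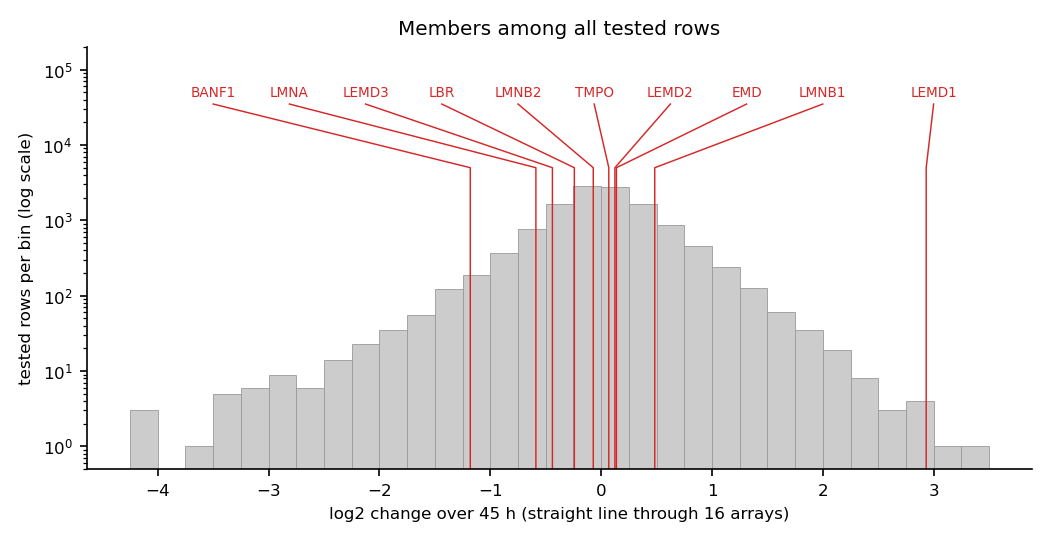
Log2 change over 45 h from a straight line through the 16 arrays (horizontal axis) for the 12321 tested rows, as the number of rows in each bin (vertical axis, log scale), with the 10 genes marked. LEMD1, chosen for its rise, lies at 2.93, BANF1 at -1.18 and LMNA at -0.59, while the other 7 genes lie between -0.44 and 0.48.

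Counted together, 7 of the 9 genes other than LEMD1 passed the spline test, where 42.2% of all 12321 tested rows did. A straight line was called for 2, BANF1 and LMNA, both lower with time, where 11.3% of all rows were called lower. It called 0 of 9 higher, where 13.1% of all rows were called higher. At an unadjusted p under 0.05 in limma 0 of 9 were higher as well, where 4353 of the 12321 rows passed in either direction. The middle of all rows lay near 0, with a median log2 change of 0.01, and 5% of rows lay above 0.91 and 5% below -0.88. By the study's criterion of 1.7-fold, taken here against 0 h on any array, 2 of the 9 were higher (TMPO and LMNB1), where 24.9% of all rows were, and 3 were lower (LMNB1, LMNB2 and BANF1), where 23.1% were. LMNB1 counts in both directions. The shares of members called by the spline and the fold criteria can be read only against these high backgrounds.

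Because the background splits the arrays into 8 early and 8 late ones, slopes were also fitted within each set, without crossing that division. LMNB1 had a slope of 2.27 per 21 h (SE 0.51) in the arrays up to 21 h and of -1.33 (SE 0.51) in those from 24 h. TMPO went from 1.49 to -1.04 (SE 0.36 each), LBR from 0.73 to -0.41 (SE 0.17 each), LMNB2 from 0.66 to -0.88 (SE 0.37 each) and LMNA from 0.17 to -0.82 (SE 0.12 each). EMD and LEMD2 turned the other way, EMD from -0.31 to 0.35 (SE 0.11 each) and LEMD2 from -0.37 to 0.32 (SE 0.16 each). The slopes thus differed between the sets in 7 of the 9 genes, downward in 5, where 12.7% of all rows were called, and upward in 2, where 12.0% were. The adjusted p of the difference was 0.0027 for LMNB1, 0.0028 for TMPO, 0.0036 for LBR, 0.0014 for LMNA, 0.0074 for EMD, 0.035 for LEMD2 and 0.040 for LMNB2. BANF1 had slopes of -0.34 and -0.75 per 21 h (SE 0.23 each), and neither this difference (adjusted p = 0.36) nor that of LEMD3 (adjusted p = 0.77) was called. With arrays scaled to a common median the differences of EMD (adjusted p = 0.28), LEMD2 (adjusted p = 0.45) and LMNB2 (adjusted p = 0.070) kept their direction and were no longer called.

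**Figure D3:**
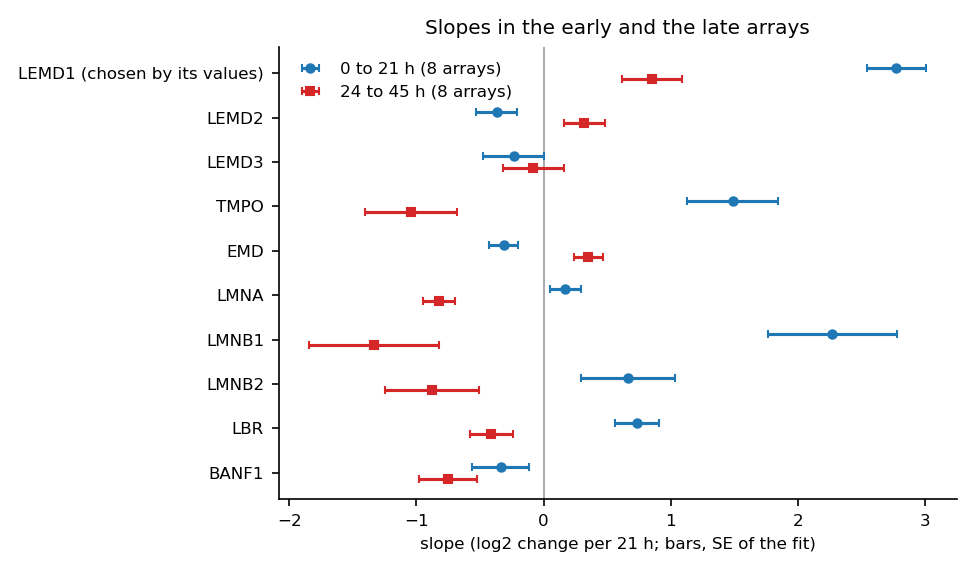
Slopes of the 10 genes, as log2 change per 21 h with their SE (horizontal axis), fitted in the 8 arrays from 0 to 21 h (circles) and the 8 arrays from 24 to 45 h (squares). LMNB1, TMPO, LMNB2, LBR and LMNA lie to the right of 0 in the early arrays and to the left in the late ones, EMD and LEMD2 do the opposite, and LEMD1, shown as a description, lies to the right in both.

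Several of these genes stepped together at 12 h and at 36 h. Between 9 and 12 h the log2 signal differed by 1.20 in LMNB1, 1.18 in TMPO, 1.04 in LMNB2, 0.38 in LEMD3, 0.34 in BANF1, 0.22 in LBR and 0.05 in LEMD2, and by -0.12 in LMNA and -0.25 in EMD. Between 33 and 36 h it differed by -1.02 in LMNB1, -0.70 in TMPO, -0.51 in LBR, -0.45 in LMNB2, -0.38 in LMNA and BANF1, -0.26 in LEMD3 and -0.12 in LEMD2, and by 0.18 in EMD. LEMD1, which is described and not counted, differed by 0.15 between 9 and 12 h and by 0.40 between 33 and 36 h. Comparing sets of arrays, 4 of the 9 genes (LMNB1, TMPO, LMNB2 and LBR) were higher on every array from 12 to 21 h than on any from 3 to 9 h, where 17.1% of all rows were, and EMD was lower, where 17.0% were. From 36 to 45 h, 6 of the 9 (the same 4, LMNA and BANF1) were lower on every array than on any from 24 to 33 h, where 15.4% of all rows were, and EMD was higher, where 15.3% were. The median absolute step over all tested rows was 0.26, 0.26, 0.24 and 0.30 at 3, 6, 9 and 12 h, and from 15 h on it was 0.19 at 36 h and 0.11 to 0.17 at the other times. A set of 4 successive time points and the change over time between sets cannot be told apart here. With these sets as a block, each given its own fixed level, a constant difference between sets no longer counts toward the fit. In that setting, chosen after the data were seen, 1 of the 9 genes, LMNB2, still passed the spline test. With the early and late sets as a block in the same way 5 did, without EMD (adjusted p = 0.056) and BANF1 (adjusted p = 0.091). With that block neither straight line passed, although the log2 changes were -1.17 for BANF1 (SE 0.36, adjusted p = 0.062) and -0.70 for LMNA (SE 0.32, adjusted p = 0.21), against -1.18 and -0.59 without it. The share of all rows that passed with either block is not given here. The 42.2% above belongs to the spline without a block.

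Genes of the cell cycle were taken from lists. Of 14 tested S phase genes, among them the MCM helicase subunits, PCNA and the ribonucleotide reductase subunits, the slope was called lower in the late than in the early arrays in 13, where 12.7% of all rows were, and higher in 0, where 12.0% were. Of 15 tested mitosis genes, such as CDK1 and CCNA2, 7 were called lower and 0 higher by the same test. Taken as a median over the list, the S phase genes differed from 0 h by -1.35, 0.50, 0.25 and -0.33 (log2) after 3, 12, 33 and 36 h. The mitosis median differed from 0 h by -1.30 and -0.08 after 9 and 12 h, by 0.33 and -0.65 after 21 and 24 h, and by 0.03 and -0.63 after 33 and 36 h, so that its step at 24 h was larger than that at 36 h. LMNB1 correlated with the S phase median at r = 0.97 over the 8 early arrays and 0.93 over the 8 late ones, and TMPO at 0.94 and 0.99. LMNB2 was closer to the mitosis median in the early arrays (r = 0.98, against 0.76 with S phase), being lowest at 6 and 9 h as that median was. LMNA followed the S phase median in the late arrays (r = 0.98) but not in the early ones (r = 0.38), and EMD ran against it in both (r = -0.88 and -0.84). For LEMD1 the values were 0.56 and -0.95. These correlations are descriptions over 8 arrays that share their normalization and sets, and carry no test.

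**Figure D4:**
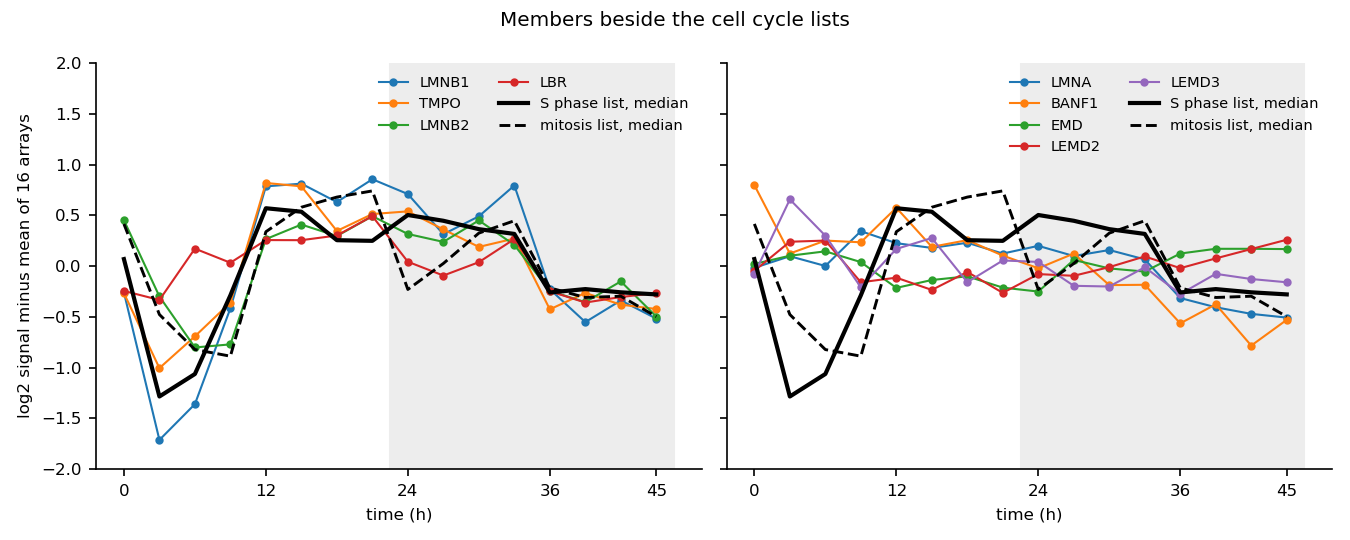
Log2 signal minus the mean of the 16 arrays (vertical axis) against time in hours for LMNB1, TMPO, LMNB2 and LBR (left) and LMNA, BANF1, EMD, LEMD2 and LEMD3 (right). The thick line is the median of 14 S phase genes and the broken line that of 15 mitosis genes; LMNB1 and TMPO keep close to the S phase median, with its low at 3 h, its rise by 12 h and its drop at 36 h.

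Among the members themselves, TMPO and LMNB1 were the pair that moved most closely in the early arrays (r = 0.97), and in the late ones, where r was 0.91, others such as LMNB1 with LBR (r = 0.95) and TMPO with LMNA (r = 0.95) were closer. EMD ran against LMNB1 (r = -0.94 and -0.88) and TMPO (r = -0.95 and -0.87). LEMD1 changed its relations between the sets. It correlated with LBR at 0.94 in the early arrays and at -0.74 in the late ones, and with TMPO at 0.71 and -0.97, as LEMD1 went on rising and those genes fell.

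The genes whose profiles over the 16 arrays were most like that of LEMD1, of 11564 compared, were DDEFL1 (now ASAP3, a regulator of ARF GTPases, r = 0.99), C9orf95 (now NMRK1, a nicotinamide riboside kinase, r = 0.97), ZNF277, a zinc finger protein (r = 0.97), and the tetraspanins CD9 (r = 0.97) and TSPAN31 (r = 0.97). In the 8 early arrays r lay between 0.95 and 0.99 and in the 8 late ones between 0.76, for CD9, and 0.97. 160 genes had an r over 0.9. At 45 h ZNF277 was 3.98-fold, C9orf95 3.37-fold, DDEFL1 2.98-fold, TSPAN31 2.79-fold and CD9 1.64-fold above 0 h, all smaller changes than the 10.2-fold of LEMD1. None of the 5 is a LEM-domain or lamina gene.

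**Figure D5:**
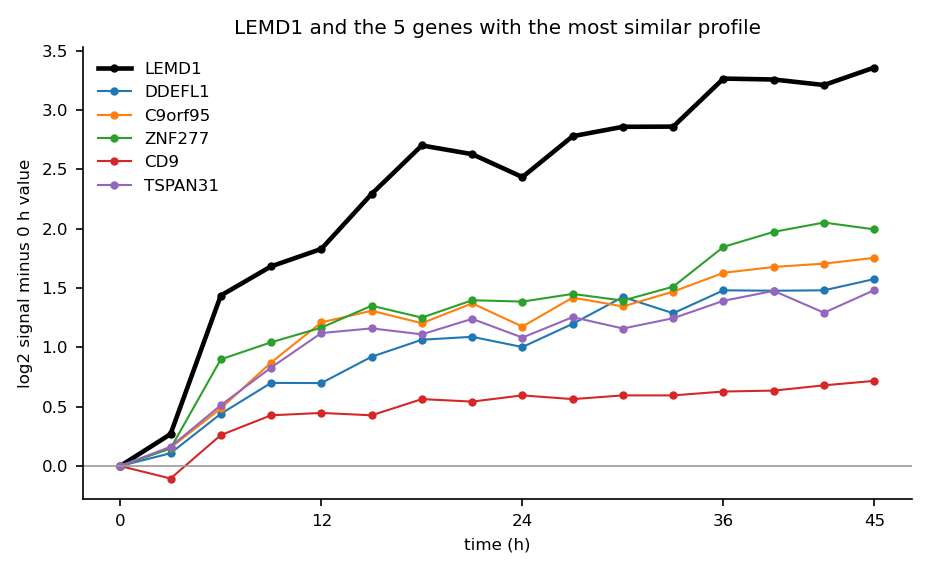
Change in log2 signal from the untreated array (vertical axis) against time in hours for LEMD1 (thick line) and the 5 genes most correlated with it. All 6 lie above 0 h from 6 h on and are highest in the last arrays, and LEMD1 reaches 3.36 at 45 h, where the others lie between 0.72 and 1.99.

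Other genes of the nuclear envelope were taken from lists, and their straight-line calls stand beside 13.1% of all tested rows called higher and 11.3% called lower. In the LINC complex, which joins the lamina to the cytoskeleton, 1 of 5 tested genes rose by the straight line and 2 fell, with a median log2 change of -0.07 against 0.01 over all tested rows. SUN2, an inner membrane protein of the complex, rose by 1.03 (SE 0.22, adjusted p = 0.0018). SUN3 (log2 change -1.51, adjusted p = 0.00079) and SYNE2 (-0.51, adjusted p = 0.028) fell, but were detected on only 8 and 4 arrays. Of 10 tested inner membrane partners 3 rose and 1 fell, where 13.1% and 11.3% of all rows did, with a median of 0.27. TMEM43, also called LUMA, which binds emerin, had the largest rise, 1.18 (SE 0.13, adjusted p = 3.2e-06), and TOR1A, the torsin ATPase of the envelope lumen, rose by 0.38 (adjusted p = 0.031). NARF, which binds prelamin A, fell by 0.95 (SE 0.18, adjusted p = 0.0010).

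The enzymes that process prelamin A, including ZMPSTE24, ICMT and the farnesyltransferase subunits, gave 0 calls of 5 by the straight line and by the spline in limma, and 1 of 5 had an unadjusted p under 0.05 in each. Of all 12321 tested rows, 5203 were called by the spline. An unadjusted p under 0.05 was reached by 4353 of them with the line and by 6410 with the spline. In the list of envelope reassembly 1 of 11 tested genes rose, CHMP2A of the ESCRT-III machinery, by 0.30 (adjusted p = 0.019), and 0 fell, where 13.1% and 11.3% of all rows did, with a median of 0.05. Of 29 tested nucleoporins 2 rose and 2 fell by the straight line, a smaller share each way than the 13.1% and 11.3% of all rows, with a median of -0.015. TPR, of the nuclear basket, rose by 0.60 (SE 0.14, adjusted p = 0.0029) and NUP133 by 0.45 (adjusted p = 0.037). SEC13, shared by the pore and by COPII coats, fell by 0.86 (SE 0.12, adjusted p = 6.8e-05). POM121 fell by 0.35 (adjusted p = 0.027), although it has a near-identical copy whose transcript the probe may also bind. The slope was called lower in the late than in the early arrays in 11 of the 29 nucleoporins, where 12.7% of all rows were, and higher in 1, where 12.0% were. Of the further LEM-domain genes ANKLE1 was detected on 2 arrays and was not tested, and ANKLE2 was not analysed here.

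RefSeq windows were found for all 10 genes, 14 windows in all, and 6 motifs were looked for on both strands. They were TTTGGCGC, TTTCGCGC and TTCCCGC for E2F factors, CCAAT, the CHR letters TTTGAA, and TGANTCA for AP-1. E2F letters, found in 6.36% of all windows, were in windows of LEMD3, BANF1 and LMNA, and not in those of LMNB1, TMPO, LMNB2 or LBR. CCAAT was in windows of LEMD3, TMPO, EMD, LMNA and LMNB1. TGANTCA, in 6.57% of all windows, was in that of LBR 51 bases before the start. A match is only a match of letters, and the members that moved together did not share a motif of this set that the others lacked.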

How the data were processed

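MCF10HER2 cells were sampled on 16 arrays, 1 per time point. According to the study's methods the arrays were Illumina Ref-8 beadchips, compared after quantile normalization. The authors deposited, for each row and array, an intensity not yet normalized between arrays and a detection p-value against that array's negative controls. Their table has 20589 rows. In 1482 of them the detection p-values are not whole steps of 1 in 708 controls, within 0.01 of a step. The rows of TMPO and LBR used here are among these.

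Intensities were background-corrected by normexp in limma 3.58.1 (R 4.3.3) with an offset of 16, quantile-normalized and taken to log2. The moments of the negative controls were inferred from the detection p-values of the other rows only, because with all rows the inferred SD of the controls was, at 0 h, 369 in place of 43.7. The all-row version is an alternative. The offset pulls changes of dim genes toward 1.

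Tests used the 12321 rows with a detection p under 0.05 on at least 3 arrays. Per gene, the detected row with the highest mean signal was used. All fits were made over these rows in limma, with a trend of variance on signal, and p-values were adjusted by Benjamini-Hochberg with 0.05 as threshold. The fits were a straight line in time, a natural spline (4 degrees of freedom), and separate lines for the arrays up to 21 h and from 24 h. The spread is that of arrays about a curve, as there are no replicates, and the number of arrays limits the precision. The 1.7-fold criterion of the study was set against the 0 h array. The fits were tested on simulated data with independent errors on each array. No steps shared by sets of arrays were simulated, so this check does not cover them.

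Members, gene lists and tests were chosen with earlier results of these data known. The text names all members, the 2 largest rises and 2 largest falls past the straight-line threshold in each list, the 5 genes most correlated with LEMD1, and ERBB2. Others were named after their values were seen. Newer symbols and promoter sequences are from RefSeq (GRCh38.p14). The array table names no genome build. Alternatives covered normalization, background, filters, left-out arrays, blocks, weights, spline flexibility and thresholds.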

Additional observations from a re-analysis of the deposited data

Results flagged for a closer look

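In 7 of the 9 genes the slope differed between the arrays from 24 to 45 h and those from 0 to 21 h, and each is given here as the late minus the early slope, in log2 per 21 h. It was -3.60 (SE 0.72) for LMNB1, -2.53 (SE 0.51) for TMPO, -1.54 (SE 0.52) for LMNB2, -1.14 (SE 0.24) for LBR and -0.99 (SE 0.18) for LMNA. It was 0.69 (SE 0.23) for LEMD2 and 0.67 (SE 0.16) for EMD. These differences were tested in limma over all tested rows. The calls for LBR, LMNA, LMNB1 and TMPO held under all alternatives run for them, and that for EMD under 24 of 25. Those for LEMD2 and LMNB2 held under 15 and 11 of 25. Sets of 4 time points as a block were not among the alternatives for this test. With that block LBR, LMNA, LMNB1 and TMPO did not pass the spline test. The early and late arrays also differ in background, whose part in the difference was not tested.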

How the results depend on the processing

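No paired analysis was possible because no 2 arrays share a time point. Median scaling moved the median log2 change over 45 h of all tested rows from 0.01 to 0.10. It left 4 of 9 genes with a called slope difference, without EMD, LEMD2 and LMNB2, and turned the uncalled line of LMNB2 to 0.039. With the early and late arrays as a block 0 genes had a called line, and the lines of LEMD2 and LBR turned to -0.053 and 0.35. In the arrays from 0 to 21 h alone the lines of LEMD2, EMD, LMNA, LMNB2 and LBR turned to -0.79, -0.67, 0.37, 1.42 and 1.57 (log2 per 45 h). In those from 24 to 45 h alone 7 genes had a called line, and those of TMPO and LMNB1 turned to -2.23 and -2.86. With array weights TMPO and LMNB1 turned to -0.55 and -0.25, and all 9 genes passed the spline test, LEMD2 (adjusted p = 0.0059) and LEMD3 (adjusted p = 0.010) included. The share of all rows called under each alternative is not given here. The counts of called genes in this section therefore have no background to be read against.

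The next 2 settings were chosen after seeing the data. With sets of 4 time points as a block 1 gene passed the spline test and 0 the line, and the lines of TMPO, LMNB1 and LBR turned to -0.90, -0.12 and 1.09. With the background estimated from all rows TMPO turned to -0.0032, and TMPO and LMNB1 lost and LBR gained the 1.7-fold call. Leaving out 1 array at a time, the line lay between -0.27 and 0.27 for TMPO, between -0.046 and 0.81 for LMNB1 and between -0.31 and 0.13 for LMNB2, all uncalled. The slope difference of LMNB2 lost its call without the array of 3 h, 15 h or 18 h or any from 21 to 45 h, and that of LEMD2 without that of 3, 15, 21, 24, 27, 30, 42 or 45 h. EMD lost its spline call without that of 21 h, and LEMD2 and LEMD3 gained one without that of 0 h. LEMD3 also gained a called fall without the 0 h or 9 h array, without the 9 h and 18 h arrays together (-0.54, adjusted p = 0.029) and with array weights (-0.60, adjusted p = 0.010), and LMNB2 lost its spline call with 3 degrees of freedom and without the 9 h and 18 h arrays together. The fold criterion has no value without the 0 h array. The line of LEMD1 lay between 1.82 and 5.94 over 28 alternatives. Of the slopes of the other genes under all alternatives, 214 kept direction and call, 24 changed sign, 8 gained and 5 lost a call. Except where named, the cause was not tested. Signal over background limits TMPO most.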

Other observations

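Further genes of the nuclear envelope, picked after their values were seen, had higher means from 12 to 33 h than before and after, as LMNB1 had. NRM, or nurim, an inner membrane protein, was 8.46 at 0 h, 7.26 ± 0.32 (SD over time points, n = 3) from 3 to 9 h, 9.32 ± 0.09 (n = 4) from 12 to 21 h, 8.94 ± 0.16 (n = 4) from 24 to 33 h and 8.21 ± 0.24 (n = 4) from 36 to 45 h. VRK1, the kinase that releases BANF1 from DNA by phosphorylating it, had means of 9.31 ± 0.30, 9.99 ± 0.09, 9.97 ± 0.14 and 9.10 ± 0.11 in the same sets, after 9.53 at 0 h. The mean of VRK1 was lowest from 36 to 45 h, whereas those of NRM and LMNB1 were lowest from 3 to 9 h. These values are a description, since NRM and VRK1 were picked for their course.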
